A study of Mus musculus with 12 samples.

Results

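The thioredoxin system is represented by 6 genes among the 18193 that the arrays measure by a probe set naming 1 gene only. They are the thioredoxins Txn1 and Txn2, the thioredoxin reductases Txnrd1, Txnrd2 and Txnrd3, and Txnip, the thioredoxin-interacting protein. The genes were chosen by name and annotation, with earlier results of these data known. Together they carry 17 probe sets, between 2 and 4 a gene. In each comparison the brightest probe set, by its mean there, stands for its gene, and the other 11 are given beside it.

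Livers of male C57BL/6 mice, all taken at 3 months of age, came from 3 control mice and from 3 mice labelled as hepatocyte-specific knockouts of selenophosphate synthetase 1 (SPS1, gene Sephs1) made with Alb-Cre, a recombinase driven by the albumin promoter. The genotype of the control mice beyond that word is not in the labels, nor is the deleted stretch of the gene. F9 cells, a male mouse embryonal carcinoma line of strain 129, were measured as 3 control samples and as 3 samples carrying an shRNA against Sephs1 (shSPS1). The labels call the F9 samples biological replicates without saying how the cultures or clones were separated, so the spread between them may be partly technical. Alb-Cre acts in hepatocytes, whereas the RNA came from whole liver and includes its other cells.

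Thioredoxins are small proteins that reduce disulphides in other proteins through a pair of cysteines and are themselves returned to the reduced form by thioredoxin reductases with NADPH. The mammalian reductases are selenoproteins, whose penultimate residue is selenocysteine, and their full synthesis depends on selenium. Selenophosphate for selenocysteine is made in mammals by SPS2 (gene Sephs2), while SPS1 is its paralogue without selenocysteine. TXNIP, an alpha-arrestin, binds reduced thioredoxin and also restrains glucose uptake, and its gene is driven by the glucose-responsive factors MondoA (Mlxip) and ChREBP (Mlxipl) with their partner Mlx. Txnrd1 is a known target of the antioxidant factor Nrf2 (Nfe2l2) in liver.

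Stretches of 2 promoters are shown because they match motifs of the factors whose gene groups are examined below. All 6 genes were found among the RefSeq promoters of the assembly GRCm38.p6, each running from 250 bases before to 50 bases after a transcription start. The Txnip stretch lies at chr3:96557832-96557928 on the plus strand. Its capitals mark the paired E-box spacing of a carbohydrate response element, searched on both strands as CACGNG followed after any 5 bases by CACGNG again, and found 85 to 69 bases before the start. The Txnrd1 stretch lies at chr10:82859074-82859162 on the plus strand, before 1 of its 3 listed starts. Its capitals mark the core of an antioxidant response element, searched on both strands as TGACNNNGC and found on the other strand 92 to 84 bases before that start.
Txnip: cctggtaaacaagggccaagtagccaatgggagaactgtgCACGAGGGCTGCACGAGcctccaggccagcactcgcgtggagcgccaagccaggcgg
Txnrd1: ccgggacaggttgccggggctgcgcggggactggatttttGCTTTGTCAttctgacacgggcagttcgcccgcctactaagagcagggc
The paired motif was in 16 of 32851 promoters (0.0487%), and the antioxidant core in 4071 of them (12.4%). The paired motif was found in no other member's window, nor in that of Arrdc4, the nearest alpha-arrestin relative described below. The Arrdc4 window held the antioxidant core 28 to 20 bases before its start. Of the other genes that fell, described below, Pgd held the core in 1 of its 2 windows, just after the start. Nxn had no match, and Gclc had no listed promoter to search. A match is a run of letters and not evidence of binding.

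The 6 liver arrays correlated at r = 0.946 to 0.953 within groups and 0.943 to 0.949 between groups, and the F9 arrays at 0.996 to 0.999 and 0.993 to 0.996, across genes, which are not independent replicates. F9 control array 1 stood apart from its group, correlating at 0.9958 and 0.9961 with controls 2 and 3, which correlated with each other at 0.9987. The log2 level of Sephs1 in F9 cells was 10.04, 10.03 and 9.94 in the controls and 7.79, 7.84 and 7.77 in the knockdown, so it fell by 2.20 (SE 0.07, adjusted p = 1.3e-05, limma), and its other 3 probe sets fell too. In liver it was 9.85, 9.74 and 9.93 in the controls and 9.89, 10.05 and 10.15 in the livers labelled knockout, which were not lower (difference 0.19, SE 0.14, adjusted p = 0.789). All 4 of its probe sets were higher there, by 0.19 to 0.47, and in 1433973_at the groups did not overlap (adjusted p = 0.845, limma on single probe sets), so the array does not check that label, and whether its probe sets lie outside the deleted stretch was not tested. The liver table therefore compares the livers labelled knockout with the control livers. The threshold was an adjusted p under 0.05 in limma (Benjamini-Hochberg, all 18193 genes). In liver 8 genes passed (2 higher, 6 lower; 0 and 2 after quantile normalization, 1 and 5 after median centring), and in F9 cells 1310. All 8 hepatocyte markers lay in the top decile of genes in liver, and all 8 embryonal carcinoma markers did so in F9 cells, where 0 of 8 hepatocyte markers lay above the median gene.

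None of the 6 genes passed the test in either comparison, against 0.044% of all genes in liver and 7.2% in F9 cells. At an unadjusted p under 0.05 the count was also 0 of 6 in each, where 7.28% of all genes in liver and 20.9% in F9 cells lay. Differences ran from -0.48 to 0.22 on the log2 scale in liver, 3 of the 6 above 0 where 54.2% of all genes were, and from -0.18 to 0.22 in F9 cells, 4 of the 6 above 0 where 46.8% of all genes were. The median size of the difference was 0.10 in liver against 0.23 over all genes, and 0.15 in F9 cells against 0.10 over all genes. These medians over all genes are not matched for brightness. The median SD was 0.99 in the dimmest quartile of genes and 0.14 in the brightest in liver, and 0.13 and 0.07 in F9 cells. All 6 genes were brighter than the median gene in both, so the medians cannot show whether the 6 were unusually stable or unusually changed. The 95% interval reached 0.39 to 0.85 to either side in liver and 0.16 to 0.27 in F9 cells, so the F9 arrays bound these genes more tightly. Given each gene's standard error, a gene would have needed a difference of 2.10 to 4.56 in liver, or 0.29 to 0.47 in F9 cells, to reach the t statistic of the least clear gene that passed. Smaller differences could not reach it at these standard errors.

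**Figure D1:**
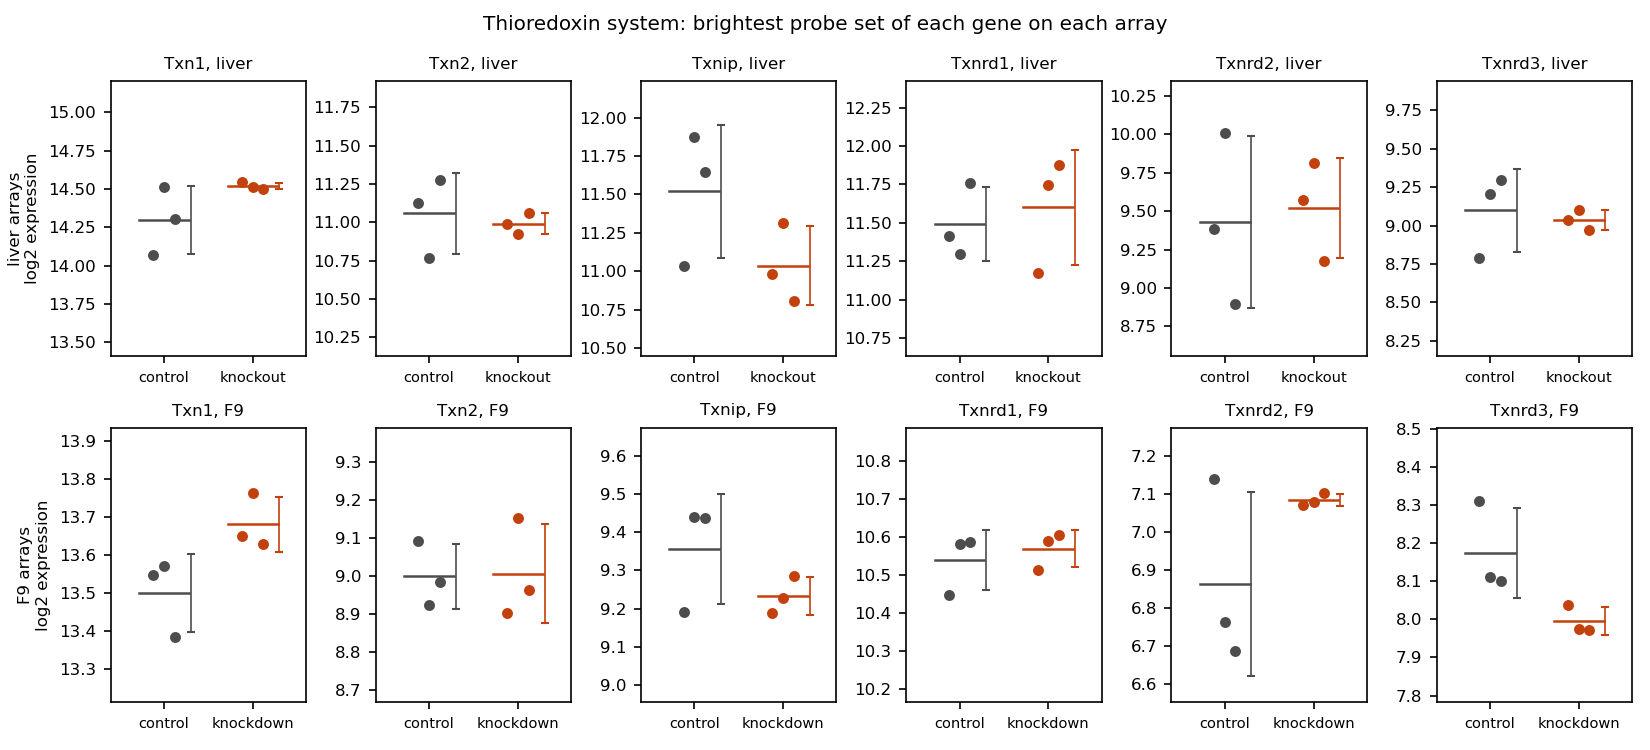
Log2 expression of the brightest probe set of each gene on every array, with liver in the upper row and F9 cells in the lower. Points are arrays, the horizontal line is the group mean and the bar is the SD (n = 3). All panels of a row span the same number of log2 units, each centred on its gene. The groups overlap for every gene in liver, while in F9 cells the Txn1 points of the knockdown lie above the controls and the Txnrd3 points below.

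Txn1, the cytosolic thioredoxin, differed upwards in both comparisons without passing. In liver its log2 levels were 14.07, 14.51 and 14.31 in the controls and 14.54, 14.51 and 14.50 in the livers labelled knockout. The latter 3 lay close together near the highest control, and the groups overlapped. The difference was 0.22 (SE 0.16, 95% interval -0.17 to 0.61, adjusted p = 0.781, limma). Its dim second probe set, 1456734_at, differed by 1.41 in liver with levels from 4.10 to 7.31, and the groups overlapped there too (adjusted p = 0.809 among probe sets tested singly in limma).

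In F9 cells the Txn1 levels were 13.55, 13.57 and 13.38 in the controls and 13.65, 13.76 and 13.63 in the knockdown. All 3 knockdown samples lay above all 3 controls. The difference was 0.18 (SE 0.08, 95% interval -0.00068 to 0.36), with an unadjusted p of 0.0507 and an adjusted p of 0.241 in limma. Groups that do not overlap were found for 2 of the 6 genes in F9 cells, Txn1 and Txnrd3, where 27.9% of all genes have such groups, and for 0 of 6 in liver, where 14.8% do. The second Txn1 probe set differed by 0.10 in F9 cells.

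Txn2, the mitochondrial thioredoxin, gave the smallest difference in F9 cells. Its liver levels were 11.13, 10.77 and 11.28 in the controls and 10.99, 10.93 and 11.06 in the livers labelled knockout, by the probe set 1421557_x_at. The livers labelled knockout fell inside the range of the controls. The difference was -0.07 (SE 0.17, 95% interval -0.50 to 0.37, adjusted p = 0.939, limma), and 0.04 without control 3. The other probe sets differed by 0.01 and 0.29, and in the latter, 1455640_a_at, all 3 livers labelled knockout lay above the controls (adjusted p = 0.847).

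In F9 cells that same probe set, 1455640_a_at, was the brightest for Txn2 and read 9.09, 8.92 and 8.98 in the controls and 8.90, 9.15 and 8.96 in the knockdown. The groups overlapped almost entirely. The difference was 0.01 (SE 0.09, 95% interval -0.19 to 0.21, adjusted p = 0.980, limma), below 0 without control 2, control 3 or knockdown 2 (-0.07 to -0.0017), and the other 2 probe sets differed by 0.00 and -0.01.

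Txnrd1, the cytosolic reductase that acts on Txn1, differed little in either comparison. Its liver levels were 11.41, 11.30 and 11.76 in the controls and 11.17, 11.75 and 11.88 in the livers labelled knockout. The lowest and the highest array both belonged to the livers labelled knockout. The difference was 0.11 (SE 0.25, 95% interval -0.51 to 0.73, adjusted p = 0.927, limma), or -0.03 without the third liver labelled knockout. The other Txnrd1 probe sets, dimmer than the median probe set, lay on either side of 0, at -0.25 (SE 0.59) and 0.19 (SE 0.85).

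The Txnrd1 levels in F9 cells were 10.45, 10.58 and 10.59 in the controls and 10.51, 10.59 and 10.60 in the knockdown. Control 1 lay below all knockdown samples, and the other controls among them. The difference was 0.03 (SE 0.07, 95% interval -0.13 to 0.19, adjusted p = 0.863, limma), and -0.01 without control 1. The other probe sets differed by 0.02 and -0.06.

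Txnrd2, the mitochondrial reductase that acts on Txn2, gave the highest difference of the 6 genes in F9 cells. In liver its levels were 9.38, 10.01 and 8.89 in the controls and 9.57, 9.81 and 9.17 in the livers labelled knockout. The controls spanned the other group on both sides. The difference was 0.09 (SE 0.34, 95% interval -0.75 to 0.94, adjusted p = 0.959, limma), the widest interval of the 6 genes, and it turned to -0.18 without control 3 and to -0.06 without the second liver labelled knockout. Its other probe sets differed by -0.14 to 0.23.

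In F9 cells the Txnrd2 levels were 7.14, 6.76 and 6.69 in the controls and 7.07, 7.08 and 7.10 in the knockdown. Controls 2 and 3 lay below the knockdown samples and control 1 above them. The difference was 0.22 (SE 0.12, 95% interval -0.05 to 0.49, adjusted p = 0.338, limma). Without F9 control array 1, the array that stands apart, it was 0.36 with an adjusted p of 0.0175 in limma, past the threshold. Txnrd2 also passed when arrays were weighted by their quality (0.33, adjusted p = 0.0258, limma) and when its probe sets were averaged (0.29, adjusted p = 0.0480, limma). It did not pass in the other 13 of 16 alternatives. With each array left out in turn the difference ran from 0.13 to 0.36, with adjusted p from 0.0175 to 0.614 in limma.

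The other 3 Txnrd2 probe sets in F9 cells were dimmer and all differed upwards, as all probe sets did in 16.7% of the genes with 4. Probe set 1429971_at read 5.50, 5.42 and 5.62 in the controls and 5.95, 5.92 and 5.79 in the knockdown. All knockdown samples lay above all controls. The difference was 0.37 (SE 0.08, 95% interval 0.18 to 0.56, adjusted p = 0.0456 among all probe sets tested singly in limma), so this probe set rose. It was the 1 of the 17 probe sets to pass in F9 cells, where 4.58% of all probe sets did (in liver 0 of 17 passed, against 0.0143%), and leaving out any 1 of the 6 arrays moved its adjusted p to between 0.0685 and 0.180.

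Probe set 1429972_s_at, designed on the same transcript record, read 5.63, 5.89 and 5.99 in the controls and 6.46, 6.16 and 5.98 in the knockdown. The groups overlapped by the third knockdown sample. Its difference was 0.36 (adjusted p = 0.216, limma on single probe sets). Probe set 1451936_a_at differed by 0.19 (adjusted p = 0.480) with control 1 again the highest of its group, at 5.69 against 5.24 and 5.42.

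**Figure D2:**
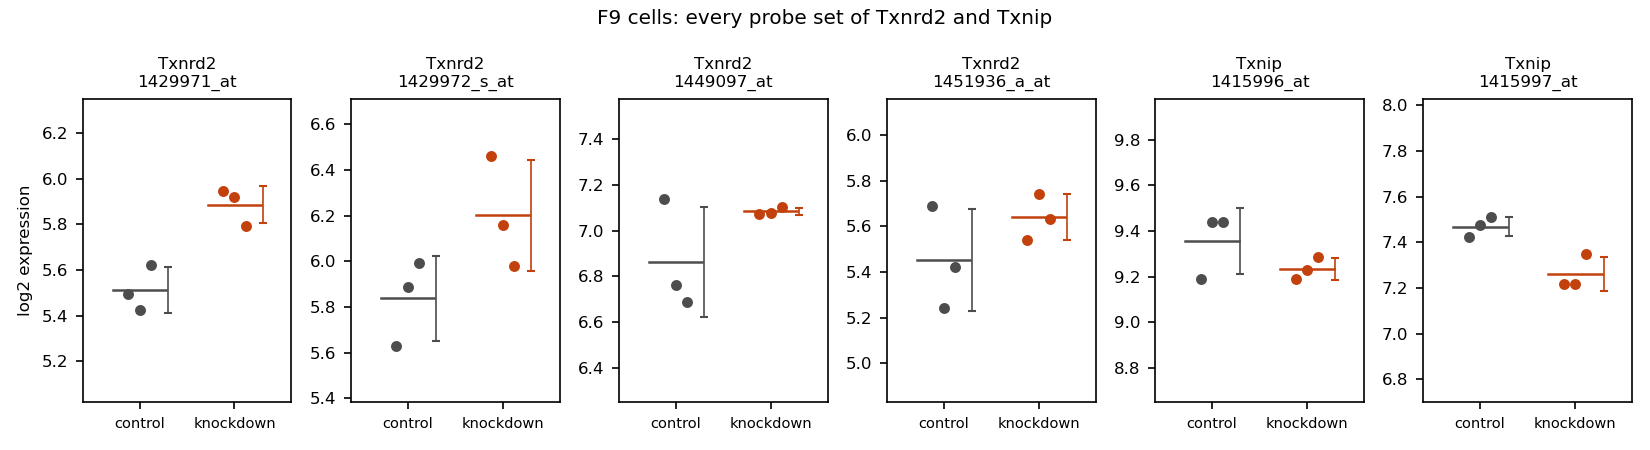
Log2 expression in F9 cells of the 4 probe sets of Txnrd2 and the 2 of Txnip on every array (points: arrays; line: mean; bar: SD, n = 3; all panels span the same number of log2 units). Control and knockdown do not overlap for 1429971_at of Txnrd2 and 1415997_at of Txnip, and 1 control array of the brightest Txnrd2 probe set lies above the knockdown at 7.14.

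Txnrd3, the thioredoxin-glutathione reductase best known from testis, was lower in every knockdown sample by its brightest probe set only. In liver its levels were 8.79, 9.21 and 9.30 in the controls and 9.04, 9.10 and 8.97 in the livers labelled knockout. The livers labelled knockout lay within the range of the controls, with a difference of -0.06 (SE 0.18, 95% interval -0.50 to 0.38, adjusted p = 0.942, limma), and 0.04 without control 3. Its other probe sets differed by 0.38 and 0.22, with groups that did not overlap in the latter, 1423869_s_at. With Txn2, that made 2 of the 17 probe sets higher in all livers labelled knockout and 0 lower, where 7.66% and 6% of all probe sets were.

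The Txnrd3 levels in F9 cells were 8.31, 8.11 and 8.10 in the controls and 8.04, 7.97 and 7.97 in the knockdown. All 3 knockdown samples lay below all controls, of which control 1 was the highest. The difference was -0.18 (SE 0.08, 95% interval -0.36 to 0.00087), with an unadjusted p of 0.0509 and an adjusted p of 0.241 in limma, and it was -0.11 without control 1. The other 2 probe sets differed by 0.06 and -0.00097.

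Txnip, which binds reduced thioredoxin, had the largest difference of the 6 genes in liver, below 0 in both of its probe sets and in both comparisons. The liver levels were 11.04, 11.88 and 11.65 in the controls and 10.98, 11.32 and 10.81 in the livers labelled knockout. Controls 2 and 3 lay above all livers labelled knockout, while control 1 lay among them. The difference was -0.48 (SE 0.27, adjusted p = 0.742, limma). Its 95% interval, -1.17 to 0.20, covers levels of 0.445 to 1.15 times the control.

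Leaving out control 1 moved the Txnip difference in liver to -0.73 (adjusted p = 0.697, limma), and leaving out control 2 moved it to -0.31 (adjusted p = 0.903). Its second probe set, 1415997_at, read 8.71, 9.85 and 9.11 in the controls and 8.77, 9.10 and 8.17 in the livers labelled knockout. Control 1 was again the lowest control, and the groups overlapped (difference -0.54, adjusted p = 0.841). Both probe sets lay below 0 in 24.1% of the genes with 2 in liver and in 32.4% in F9 cells.

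In F9 cells the Txnip levels were 9.19, 9.44 and 9.44 in the controls and 9.19, 9.23 and 9.29 in the knockdown. Control 1 lay level with the lowest knockdown sample, and controls 2 and 3 lay above the knockdown. The difference was -0.12 (SE 0.09, 95% interval -0.32 to 0.08, adjusted p = 0.499, limma), and -0.21 without control 1 (adjusted p = 0.108).

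The second Txnip probe set, 1415997_at, read 7.42, 7.47 and 7.51 in the F9 controls and 7.22, 7.22 and 7.35 in the knockdown. All knockdown samples lay below all controls here. Its difference was -0.21 (SE 0.07, 95% interval -0.38 to -0.04), with an unadjusted p of 0.0220 and an adjusted p of 0.178 in limma on single probe sets. Over all 17 probe sets in F9 cells, 2 were higher in every knockdown sample and 2 lower, where 12.2% and 12.8% of all probe sets were.

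**Figure D3:**
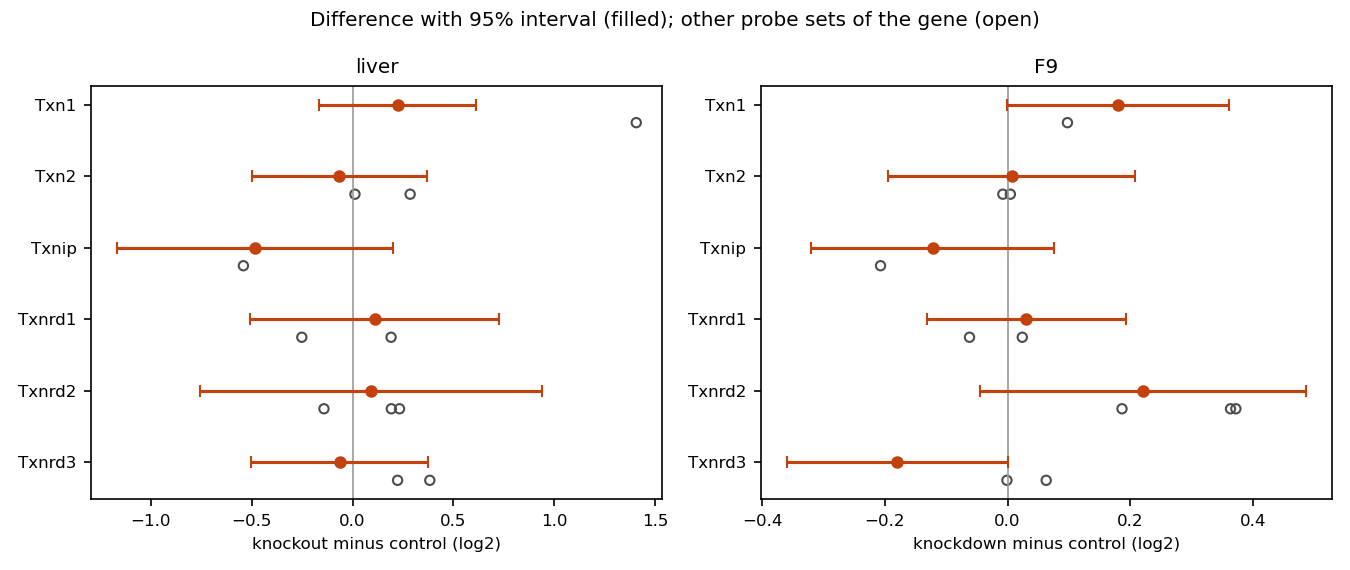
Treated minus control difference (log2) of each gene in liver and in F9 cells, with a scale of its own in each panel (filled points: brightest probe set with its 95% interval; open points: the gene's other probe sets). Every interval reaches 0, the F9 intervals are narrower, and all open points of Txnip lie below 0 and those of Txnrd2 in F9 cells above it.

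Other measures moved with the groups. In liver the hybridisation controls were 0.66 higher on the arrays of the livers labelled knockout and the 3′ minus 5′ difference of Actb was 0.19 higher. In F9 cells the poly-A controls were -1.003 and the 3′ minus 5′ differences of Actb -0.22 and of Gapdh -0.12 relative to the controls. Each of these had an exact permutation p of 0.10, two-sided, the smallest that 3 against 3 allows. The summed linear level of the 8 Kupffer cell and macrophage markers was 13883 to 17655 in control livers and 10338 to 13700 in livers labelled knockout, with 7 of 8 below 0 and 0 passing. That of the hepatocyte markers was 257214 to 341900 and 355688 to 401136, with 7 of 8 above 0. In F9 cells the embryonal carcinoma markers summed to 70777 to 80299 in controls and 82256 to 83461 in the knockdown. Of their differences, 8 of 8 were above 0. The primitive endoderm markers summed to 1420 to 1504 in controls and 1707 to 1750 in the knockdown. Only 4 of these 8 were above 0 and 3 were brighter than the median gene, so the sum shows no rise of the whole list. Sums of further lists, named for other cell types, also lay apart. In F9 cells the 4 measured cholangiocyte markers gave 2795 to 3035 in controls and 2348 to 2473 in the knockdown. Of these markers 1 lay in the top decile of genes in F9 cells and the rest below the median gene. The difference was above 0 in 0 of the 4. The 6 liver endothelial markers, none above the median gene, gave 197 to 240.0 and 162 to 185, with 3 of 6 above 0. In liver the 8 embryonal carcinoma markers, none above the median gene, gave 184 to 254 in controls and 281 to 299.7 in livers labelled knockout. Their differences were above 0 in 5 of 8. The part of these measures in the values of the 6 genes was not tested, and in these bulk samples fewer cells of a type and less RNA per cell cannot be told apart.

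The alpha-arrestins, the family of Txnip, and its regulators of the Mlx group held the clearest change among the genes around the thioredoxin system. Arrdc4, the alpha-arrestin closest to Txnip and like it a target of the Mlx group, fell in F9 cells. Its levels were 8.53, 8.42 and 8.50 in the controls and 7.69, 7.92 and 7.65 in the knockdown. All knockdown samples lay well below all controls, by -0.73 (SE 0.09, adjusted p = 0.0026, limma), and its other probe set differed by -0.56. Arrdc4 passed under all 16 alternatives tried, with adjusted p from 0.00032 to 0.0221, control 1 left out included. In liver its brightest probe set, not the one used in F9 cells, differed by -0.02 (adjusted p = 0.977, limma), and its other probe set by 0.36.

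Of the 8 measured genes of that group, 0 rose and 1 fell in F9 cells, where 2.56% and 4.64% of all genes did, with a median of -0.15 against -0.01 over all genes. At an unadjusted p under 0.05, 1 was higher and 4 lower, where 8.92% and 12% of all genes were. In liver 0 of 8 passed, with a median of 0.17 against 0.03 over all genes.

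Of Nrf2 and its targets beside Txnrd1, 13 of 14 were measured, all but G6pdx. In F9 cells 0 rose and 2 fell, where 2.56% and 4.64% of all genes did. They were Gclc, the catalytic subunit of glutamate-cysteine ligase for glutathione synthesis, and Pgd, an NADPH-producing enzyme of the pentose phosphate pathway. Gclc read 9.40, 9.39 and 9.30 in the controls and 9.00, 8.85 and 8.99 in the knockdown. The groups lay apart, by -0.41 (SE 0.07, adjusted p = 0.0132, limma), and the other probe set differed by -0.28. In liver Gclc differed by -0.17 (adjusted p = 0.870) and Pgd by -0.10 (adjusted p = 0.881).

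Pgd read 12.11, 12.16 and 12.11 in the F9 controls and 11.71, 11.52 and 11.84 in the knockdown. The groups lay apart here too, by -0.44 (SE 0.09, adjusted p = 0.0258, limma), and the other 3 probe sets by -0.47 to -0.36. Gclc did not pass without control 2 (adjusted p = 0.0551) or knockdown 2 (0.0673), and Pgd did not pass without control 2 (0.0870), control 3 (0.0766), knockdown 1 (0.0746) or knockdown 2 (0.0820). At an unadjusted p under 0.05, 4 of the 13 were higher and 2 lower, where 8.92% and 12% of all genes were, and the median was 0.01 against -0.01 over all genes. In liver 0 of 13 passed, with a median of 0.08 against 0.03 over all genes.

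Of 23 other proteins with a thioredoxin fold, 0 rose and 1 fell in F9 cells, where 2.56% and 4.64% of all genes did, so the share that fell was near that of all genes. That gene was Nxn, the nucleoredoxin that binds Dishevelled. It read 8.59, 8.56 and 8.79 in the controls and 8.31, 8.20 and 8.18 in the knockdown. The groups lay apart, by -0.42 (SE 0.08, adjusted p = 0.0231, limma), with -0.33 in its other probe set, and it differed by -0.19 in liver (adjusted p = 0.882). It did not pass without control 3 (adjusted p = 0.0729), knockdown 2 (0.103) or knockdown 3 (0.0921). The median of the 23 was 0.02 against -0.01 over all genes, with 1 higher and 5 lower at an unadjusted p under 0.05, where 8.92% and 12% of all genes were. In liver 0 of 23 passed, and the median was -0.01 against 0.03.

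The thioredoxin clients listed are peroxiredoxins, methionine sulphoxide reductases, ribonucleotide reductase subunits and a few others. Of these, 13 of 15 were measured, and the peroxiredoxins Prdx1 and Prdx5 were not. Of the 13 measured clients, 0 passed in either comparison, where 0.044% of all genes in liver and 7.2% in F9 cells did. Their median was 0.08 in liver, against 0.03 over all genes, and -0.09 in F9 cells, against -0.01. In F9 cells 2 lay above 0 and 11 below, where 46.8% of all genes lay above. The smallest p among them in F9 cells belonged to Msrb2, a mitochondrial methionine sulphoxide reductase, at 7.89, 7.93 and 7.97 in the controls and 8.20, 8.15 and 8.17 in the knockdown. The groups did not overlap, and the difference of 0.25 (SE 0.06, adjusted p = 0.0569, limma) missed the threshold. Rrm2b, the p53-induced ribonucleotide reductase subunit, differed by -0.17 in F9 cells (adjusted p = 0.286) and by 0.11 in liver (adjusted p = 0.851).

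**Figure D4:**
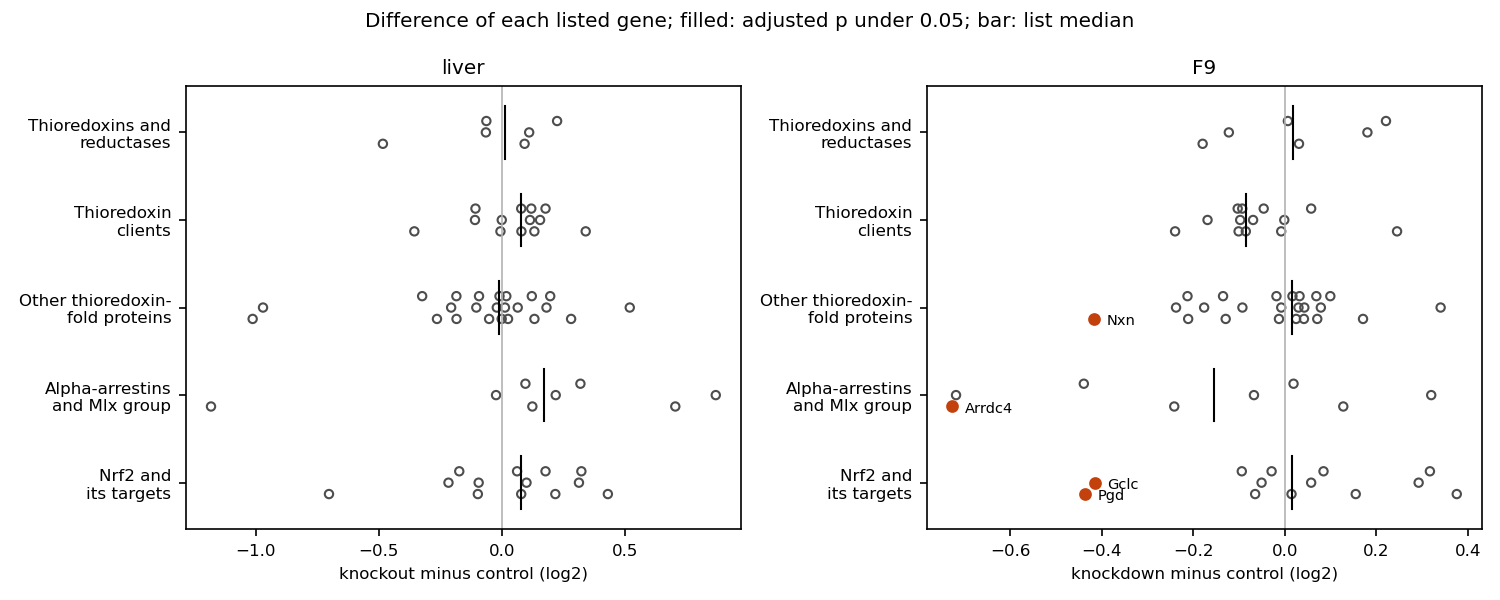
Difference (log2, treated minus control) of every measured gene of the 6 thioredoxin system genes and of the 4 gene groups, in liver and in F9 cells, with a scale of its own in each panel (filled: adjusted p under 0.05; vertical bar: median of the group). In F9 cells Arrdc4, Gclc, Pgd and Nxn are filled, all below 0, and in liver no point is.

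The genes whose values ran most like those of Txnip or Txnrd1 over the 6 arrays of a table were looked up among genes brighter than the median, 8861 in liver and 8885 in F9 cells. For Txnip they were Cdh5 (r = 0.990), Sat1 (0.987) and Basp1 (0.983) in liver, and Rcc1 (0.994), Myl12a (0.993) and Ergic1 (0.988) in F9 cells. For Txnrd1 they were Mta2 (0.998), Clpp (0.986) and Fam53c (0.986) in liver, and Hykk (0.990), Zwilch (0.983) and Rhoa (0.981) in F9 cells. These are the highest values of a large search over only 6 arrays, and no gene appeared in both tables.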

How the data were processed

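RNA (100 ng a sample) was labelled with biotin and hybridised to 12 Affymetrix arrays, each with 45101 probe sets. The deposited values are on a log2 scale. R 3.0.1 and affy 1.38.1 are named per the submitters' processing notes, and the summary and normalization methods are not given in the sources used here. Put back on the linear scale, the deposited log2 values have a trimmed mean of 500 on each liver array and of 269.7 to 275.6 on the F9 arrays, as separate processing would give, so liver and F9 were never compared. The table of all 12 arrays held the same values (largest difference 0).

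Of 34945 probe sets naming 1 gene, controls left out, the brightest of each of 18193 genes was tested (limma version 3.58.1, R version 4.3.3, functions lmFit and eBayes, both directions, dim genes kept), within each table of 6 arrays, with Benjamini-Hochberg adjustment over all genes. Single probe sets were tested in a fit over all 34945. Array number limits the precision. A check on simulated data with independent noise asked only that planted differences were recovered on average. It set no condition on missed or false calls. Genes were named by rule: all 6 genes, Sephs1, the genes of each of 4 groups that passed or else the 2 with the smallest p, and the 3 genes most like Txnip and Txnrd1. Genes, groups and lists were chosen with earlier results of these data known. Of 9 marker lists, those whose summed level lay apart between the groups are given. Alternatives were other normalizations, filters, probe set summaries, variance models, a replicate block and each array left out.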

Additional observations from a re-analysis of the deposited data

How the results depend on the processing

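Over 16 alternatives the 6 genes gave 96 values in liver, of which 0 passed, and 96 in F9 cells, of which 3 passed, all of Txnrd2. The count of the 6 genes higher in F9 cells was 0, and 1 with the mean of probe sets, with every probe set tested by itself and with array weights, and 0 to 1 with an array left out. Genes passing in liver numbered 8, against 1325 at an unadjusted p, 2 after quantile normalization, 25 and 67 without the dimmest 25% and 50% of genes, 2 with the mean of probe sets, 5 with every probe set, 89 with an intensity trend and robust prior, 0 with a replicate block, 19 with dim values raised to a floor and 0 to 3 with an array left out. Genes passing in F9 cells numbered 1310, against 3803 at an unadjusted p, 2285 with array weights, 662 with the replicate block and 524 to 1452 with an array left out (851 or fewer without any array but control 1). Genes of the 4 groups that rose in F9 cells numbered 0, against 1 after quantile normalization, 1 after median centring, 2 and 4 without the dimmest 25% and 50%, 3 with the mean of probe sets, 2 with every probe set, 3 with the trend, 4 with array weights, 1 with the floor and 0 to 1 with an array left out (1 without control 1 or knockdown 1). Those that fell numbered 4, against 7 with every probe set, 7 with the trend, 7 with array weights, 1 with the replicate block and 1 to 7 with an array left out (7 without control 1, 2 without control 3, 1 without knockdown 2). The counts given with every probe set are of probe sets, not of genes. The cause was not tested.

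Some differences changed sign. With the mean of probe sets Txn2 was 0.077 and Txnrd3 0.18 in liver, and Txnrd1 -0.0023 in F9 cells. With an array left out, liver values ran from -0.21 to 0.045 for Txn2, -0.22 to 0.036 for Txnrd3, -0.18 to 0.38 for Txnrd2 and -0.029 to 0.32 for Txnrd1, and F9 values from -0.067 to 0.058 for Txn2 and -0.015 to 0.059 for Txnrd1. The alternatives for probe set 1429971_at of Txnrd2 and for the 4 genes that fell were chosen after seeing the data; that probe set lost its call in 8 of 11 (adjusted p = 0.0636 with the trend and 0.148 with the block, limma). Same-numbered arrays did not deviate together (r = -0.05 to 0.01 in liver, -0.22 to 0.01 in F9 cells). With 3 arrays a group a small shared effect could be missed, so whether the numbers pair the samples is not settled. With the replicate block 0 of the 6 genes passed, Arrdc4 kept its call, and Nxn (adjusted p = 0.0818), Gclc (0.0593) and Pgd (0.0810) did not pass in limma. With the floor Nxn (0.0537) and Pgd (0.0658) did not pass.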
